A study of Saccharomyces cerevisiae with 41 samples.

Results

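Mature 18S rRNA of yeast 80S ribosomes was compared, nucleotide by nucleotide, with the 20S pre-rRNA of pre-40S particles purified through Tsr1, after probing with 1M7. All samples were Saccharomyces cerevisiae of the BY4741 background, grown in YPD or in galactose and raffinose medium; which medium a sample had is not given. The comparison used 13 of the 41 samples of the series: 3 of 1M7-treated 80S (strain with fun12-TAP), 3 of 1M7-treated Tsr1 particles (strain with tsr1-HTP), 3 late controls and 4 mid-early controls. The late controls were of 18S rRNA and pooled 2 samples of the fun12-TAP strain and 1 of the nob1-TAP strain. The mid-early controls were of 20S pre-rRNA and held 1 sample each from the enp1-HTP, ltv1-HTP, tsr1-HTP and rio2-HTP strains. Each group was deposited as 1 column of the authors' means, so there is 1 value a side, no SD and no test, and every difference below is a description of these columns. The samples also differ in tag, strain and control, and none of these can be told apart from the maturity of the rRNA.

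Tsr1 is an assembly factor that resembles a translational GTPase and sits on the subunit face of cytoplasmic pre-40S particles, where it stands in the way of initiation factors. Its release belongs to the last steps of small-subunit maturation, before the nuclease Nob1 cuts 20S pre-rRNA at the 3' end of 18S. Fun12 is the yeast initiation factor eIF5B, which joins the mature subunits and therefore brings down 80S ribosomes. The reagent 1M7 acylates the ribose 2'-hydroxyl of flexible nucleotides, and an adduct stops reverse transcriptase on the nucleotide 3' of it. The DMS columns of the same table show this shift. DMS methylates adenine and cytosine, and among the 100 strongest DMS-dependent stops of 80S the base preceding the stop was adenine at 87 and cytosine at 7. Nucleotide names below are those of the stop.

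The stretches on which the comparison turns are printed below, with U for the T of the deposited table and no genome build, since none is named there. In the first 4, capitals mark the called stops whose call was carried by the treated rates, as defined below; they hold the most reduced stops of the head, the decoding strand of h44 with h45, and both kinds of change around h18.
A1300 to U1320: AuuugUcuGcuUAAUUgcgAu
G1383 to C1403: gagggacuAucgguuUCAAgc
A1750 to U1785: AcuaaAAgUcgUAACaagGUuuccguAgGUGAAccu
C554 to A604: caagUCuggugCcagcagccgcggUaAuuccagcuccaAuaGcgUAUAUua
In the next stretch, the loop of h31, capitals mark stops at which the untreated controls differed along with the treated rates.
G1178 to A1196: ggcUUAAUUUgacUCaacA

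Reactivity was the treated drop-off rate minus the rate of the particle's own control, over a divisor: after setting aside the top 2% of the column, the next 8% were averaged. The divisor was 0.0213 in 80S and 0.0267 in Tsr1, so the same departure from the control counts for more in 80S. Mean rates were nearly equal, 0.0280 in 80S, 0.0287 in Tsr1, 0.0285 in the late and 0.0286 in the mid-early controls. Reactivities reached 0.3 at 297 nucleotides of 80S and at 285 of Tsr1, of which 188 were shared. The treated rate lay below its control at 1028 nucleotides in 80S and 1089 in Tsr1. Across the 1799 nucleotides the reactivities had r = 0.678, a description across nucleotides that share a molecule and a scaling.

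A nucleotide was called where the reactivities differed by 0.5 or more. The nucleotides nearest to that line were A410, with a difference of 0.50, and A1226, with 0.499. In 80S, 146 nucleotides were more reactive than in Tsr1 (8.12% of the 1799) and 163 were less reactive (9.06%). For scale, 174 nucleotides passed the same line between Enp1 and Tsr1 particles, which share 1 control column. The controls of 80S and Tsr1 differ, so each call was split into what the treated and what the control rates contributed. A call was carried by the treated rates where the 1M7 rates themselves differed in its direction by at least 0.5 of the mean divisor, a rate of 0.0120. It was made by the controls where the treated rates did not differ in its direction and the controls differed in the opposite one. The remainder was mixed. The first rule set no limit on the control difference. At some calls carried by the treated rates the controls differed by more, as at A636 and G1428. Of the 146 higher calls, 67 (45.9%) were carried by the treated rates, 54 were mixed and 25 were made by the controls. Of the 163 lower calls, 90 (55.2%) were carried by the treated rates, 39 were mixed and 34 were made by the controls. Many of these calls include a treated rate below its own control. Among the 90 lower ones this was so in 80S at 49 and in Tsr1 at 17. Among the 67 higher ones it was so in 80S at 9 and in Tsr1 at 31. A reactivity of 0.3 was reached in Tsr1 at 65 of the 90, and in 80S at 50 of the 67.

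**Figure D1:**
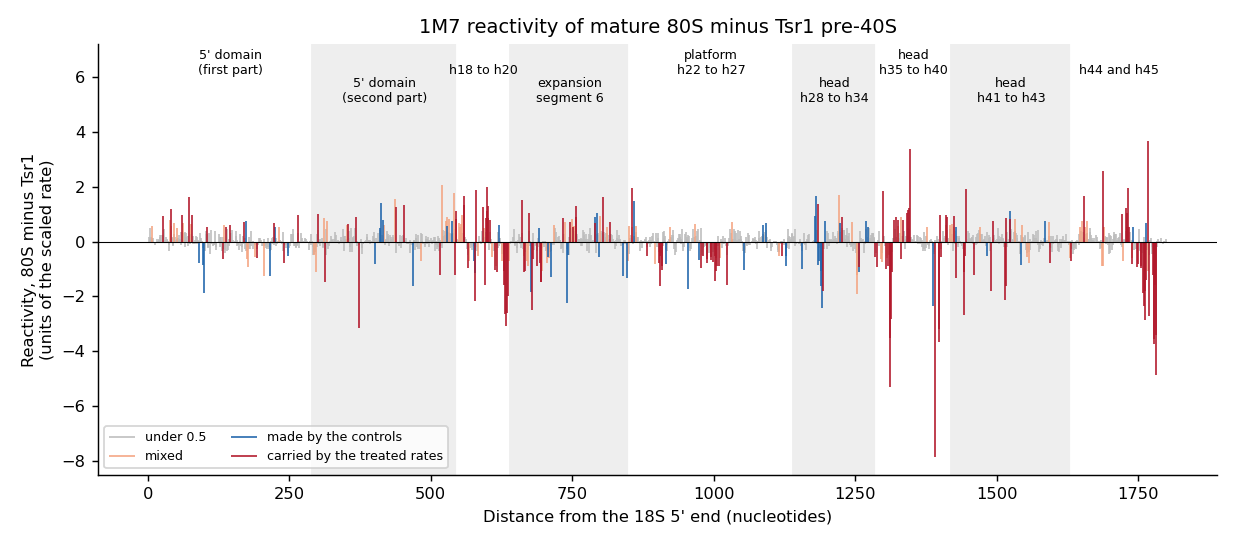
Reactivity of 80S minus Tsr1 with 1M7 (vertical axis, units of the scaled rate) at each of 1799 nucleotides against distance from the 18S 5' end (horizontal axis), coloured by class. The deepest bars are in h35 to h40 (A1391, -7.86, and A1312, -5.30) and at the end of h45, and higher calls are spread over the molecule with few in the platform.

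The 2 directions differed in base. Of the 67 higher calls carried by the treated rates, 56 (83.6%) were stops at an adenine, and of the 90 lower ones 29 (32.2%). Uracil was the stop at 8 (11.9%) of the higher and 46 (51.1%) of the lower calls. Among all nucleotides adenine made up 26.8% and uracil 28.3%. Nucleotides with a reactivity of 0.3 or more were adenine in 53.2% of cases in 80S and 38.2% in Tsr1, and uracil in 30.0% and 41.8%. By the nucleotide 5' of the stop, the one that carries the adduct, adenine was found at 34 (50.7%) of the higher and 32 (35.6%) of the lower calls. Adjacent stops were more frequent among the lower calls: 45 of 90 had a neighbour of the same class and direction, against 16 of 67 higher calls. The longest runs, each of 5, were U598 to U602 among the higher and G1002 to C1006, U1311 to U1315 and G1778 to A1782 among the lower calls.

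NAI, another reagent that acylates the ribose, was used on other samples of both particles, each with its own DMSO column, and shares no sample with the 1M7 comparison. The same DMSO columns stand in below as other controls for 1M7, so that check and NAI are not independent. With NAI, 175 nucleotides were higher in 80S (9.73%) and 227 were lower (12.6%). Among the 90 lower calls carried by the 1M7-treated rates, NAI was lower in 80S at 64 (71.1%), beside 48.2% of all nucleotides, and lower by 0.5 or more at 43 (47.8%), with 13 as far the other way. Among the 67 higher calls NAI was higher at 33 (49.3%), beside 51.8% of all nucleotides. It was higher by 0.5 or more at 13 (19.4%), and 14 (20.9%) were as far the other way. The share with the NAI sign was thus above that of all nucleotides for the lower calls and close to it for the higher calls. Of the 34 lower calls made by the controls, 21 had the NAI sign, and of the 25 higher ones 8. Across the 157 calls carried by the treated rates r between both reagents was 0.378, and across all 1799 nucleotides 0.252. The 157 were picked by the size of the 1M7 difference. They include A1391 (1M7 -7.86, NAI -8.67) and A1781 (-4.88, -14.2), whose weight in r was not tested.

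**Figure D2:**
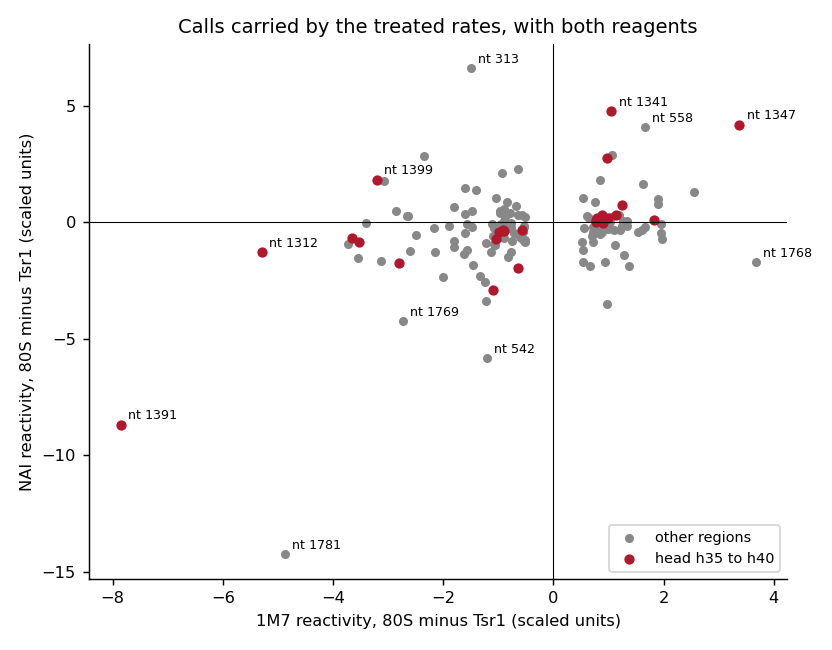
NAI reactivity of 80S minus Tsr1 (vertical axis) against the 1M7 difference (horizontal axis), both in scaled units, for the 157 calls carried by the treated rates. Of the 25 calls in h35 to h40 (red), 23 have the same sign with both reagents; A1391 is far lower in 80S with both.

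Helices h35 to h40 of the head (nucleotides 1288 to 1419) held the largest pair of differences in 1M7 reactivity, at A1391 and A1312. Of 132 nucleotides, 13 were lower and 12 higher in 80S in calls carried by the treated rates, 9.85% and 9.09%, beside 5.00% and 3.72% of the whole molecule. With NAI 12 of these 13 had the lower sign and 11 of the 12 the higher sign, against 52 of 77 and 22 of 55 elsewhere. In this region NAI was lower in 80S at 50.8% of all nucleotides. The lower calls were also held when the DMSO columns replaced the untreated controls, at 12 of 13, and the higher ones at 11 of 12. NAI reactivity subtracts these columns too.

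A1391 had the largest difference in 1M7 reactivity, -7.86, but not under every setting. With a common control, the DMSO columns or NAI that of A1781 in h45 was larger (-9.28, -15.24 and -14.2, against -8.28, -7.13 and -8.67 at A1391). With a common control those of C1192 (21.9) and A1184 (14.1) were larger too. With treated minus control divided by 1 minus the control rate, A1782 (-66.6) and C1192 (-10.1) passed A1391 (-8.08). With no control subtracted C1192 (6.78), A1184 (4.29) and A1781 (-2.69) passed A1391 (-2.59). With the control of the DMS set A1782 (37.6) passed A1391 (-7.64). The 1M7 rate of A1391 was 0.0760 in 80S, against 0.292 in Tsr1, 3.85 times as high in Tsr1, while the controls were alike at 0.0680 (late) and 0.0728 (mid-early). The reactivity was 0.38 in 80S and 8.23 in Tsr1. NAI gave a rate of 0.0201 in 80S and 0.399 in Tsr1, with DMSO rates of 0.0628 and 0.0402. In 80S the stop at A1391 was thus close to the untreated rate with 1M7 and below the DMSO rate with NAI. The other 1M7 columns lay between these values or above them. The rate was 0.162 in 80S-like particles (fun12-TAP with GAL::3HA-fap7), 0.190 in Nob1 (nob1-TAP) and 0.217 in Rio1 particles (rio1-HTP). It was 0.238 in Enp1 (enp1-HTP), 0.259 in Rio2 (rio2-HTP) and 0.353 in Ltv1 particles (ltv1-HTP).

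The run U1311 to U1315 was lower in 80S at every nucleotide, with both reagents. At A1312 the 1M7 rate was 0.0150 in 80S and 0.158 in Tsr1, over controls of 0.00729 (late) and 0.00737 (mid-early), and the NAI rate was 0.00640 in 80S and 0.0617 in Tsr1. U1311 had 0.0621 in 80S and 0.144 in Tsr1, and A1313 had 0.0790 and 0.146. A1313 kept a reactivity of 1.33 in 80S, against 4.14 in Tsr1, whereas U1314 (-0.02) and U1315 (-0.16) were at their control in 80S, against 1.02 and 0.93 in Tsr1. U1315 was the most reduced of the run with NAI, with 0.35 in 80S and 3.26 in Tsr1.

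U1398 and C1399 were reduced without reaching the control. U1398 had a reactivity of 2.71 in 80S and 6.36 in Tsr1, and C1399 had 2.44 and 5.65. With NAI U1398 was -0.35 in 80S and 0.31 in Tsr1, but C1399 was higher in 80S, 2.69 against 0.86. The next stop, A1400, was higher in 80S with both reagents (1M7 1.26 against 0.29, NAI 3.04 against 0.28).

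The higher calls of the same region lay mainly between the reduced ones. U1347 was the most reactive nucleotide of 80S, with 9.46 against 6.08 in Tsr1; the treated rates were 0.230 and 0.197, so much of this difference came from the smaller divisor of 80S. With 1 divisor for both columns its difference was 1.64, and with a common control as well (chosen after seeing the data) 1.32. With NAI it was 6.13 in 80S and 1.95 in Tsr1. A1346 had 1.03 in 80S and -0.20 in Tsr1. A1341 had 0.33 and -0.73 with 1M7 and 7.27 and 2.51 with NAI. A1300 was higher in 80S with 1M7 (4.00 against 2.17) and near or below its DMSO rate with NAI in both particles (-0.52 and -0.62). With the control of the DMS set its 1M7 difference was 0.29 and the call was lost.

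**Figure D3:**
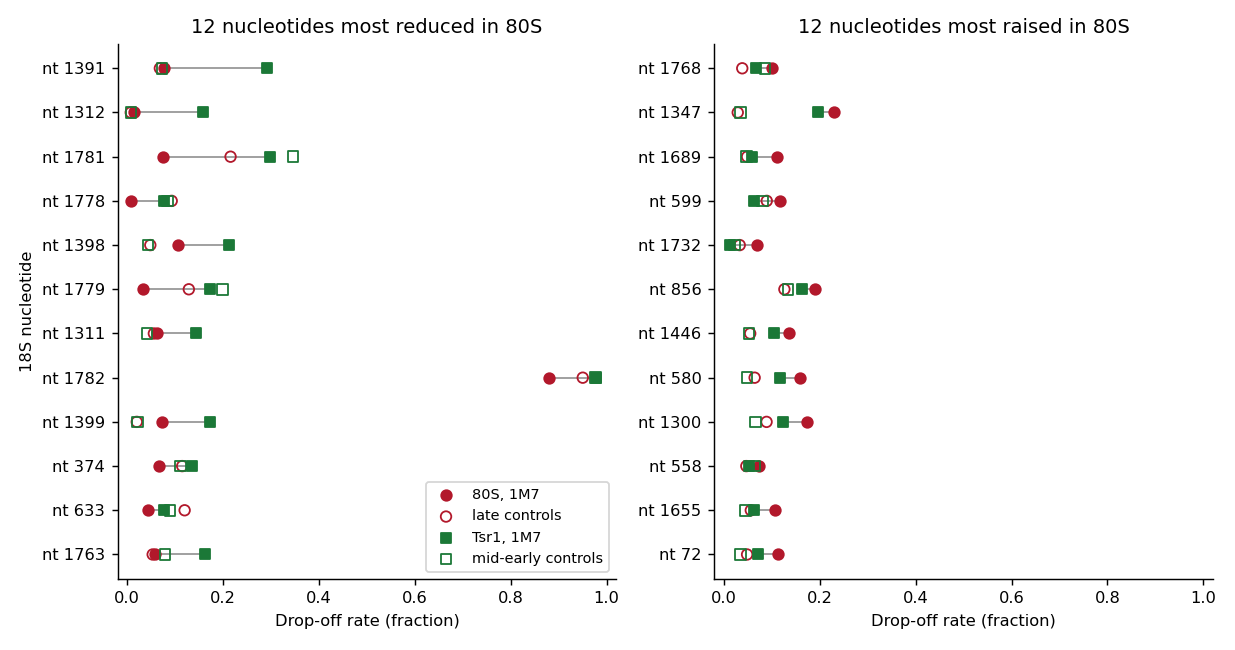
Drop-off rates (horizontal axis, fraction) of the 12 nucleotides most reduced (left) and most raised (right) in 80S among calls carried by the treated rates, with 80S and its late controls in red and Tsr1 and its mid-early controls in green. At A1391, A1312, U1398, U1311 and C1399 both controls lie close together and the Tsr1 rate is far to the right of them; at A1781, G1778 and U1779 the 80S rate lies below its own control.

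The 3' strand of h44 holds A1755 and A1756, the adenosines that inspect the codon-anticodon helix in the decoding centre, and h45 carries the pair of adenosines dimethylated by Dim1, A1781 and A1782. The block of h44 and h45 held 17 lower and 9 higher calls carried by the treated rates among 169 nucleotides, 10.1% and 5.33%, and 15 of the lower ones lay between G1745 and A1781. There the mean rates of mature 18S lay below those of 20S pre-rRNA. Beside its mean over the molecule (0.0280) 1M7-treated 80S was low, but the late controls were not (0.0285). Over these 37 nucleotides the mean rate was 0.0163 in 1M7-treated 80S and 0.0562 in Tsr1, 0.0375 in the late and 0.0605 in the mid-early controls, and 0.0457 and 0.0679 in the DMSO columns of 80S and Tsr1. The 80S rate was below the Tsr1 rate at 36 of the 37, and the late control below the mid-early one at 34. At 30 of them treated 80S was below its own control, beside 19 in Tsr1. The mature molecule ends at nucleotide 1800, while 20S pre-rRNA runs on into the spacer, so the sites for random primers 3' of this stretch differ between the columns; their part was not tested.

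In h44 most lower calls were seen in 1M7 reactivity and not in NAI reactivity. A1755 had 0.00535 in 80S and 0.0351 in Tsr1, and A1756 had 0.00411 and 0.0291, over late controls of 0.0162 and 0.0138 and mid-early controls of 0.0251 and 0.0153. G1757, the stop that reads A1756, had 0.000515 in 80S and 0.0229 in Tsr1 and was not called. Against the DMSO columns the difference was -0.24 at A1755, under the line, and 0.35 at A1756, the other way. Further 3' the rates were larger. U1761 had 0.0107 in 80S and 0.0961 in Tsr1, A1762 had 0.0253 and 0.126, and A1763 had 0.0580 and 0.162. The reactivity of A1763 was 0.23 in 80S and 3.09 in Tsr1, and that of U1761 was -1.25 and 1.09. Of the 10 lower calls of h44, 2 had the lower sign in NAI reactivity. The NAI rates before subtraction were lower in 80S at A1755 (0.000746 against 0.0191 in Tsr1), A1756 (0.000928 against 0.0142) and A1763 (0.0216 against 0.0770). The DMSO rates were 0.00249 in 80S and 0.129 in Tsr1 at U1761, and 0.000917 and 0.0719 at A1763. Against them the difference was 1.24 at U1761, the other way, -0.09 at A1762 and -0.90 at A1763.

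In h45 all 7 lower calls had the lower sign with NAI, though at A1782 the NAI difference was only -0.016. Of all 24 nucleotides of h45, NAI was lower in 80S by 0.5 or more at 8 and higher at 2. NAI rates of 80S were low over the stretch as a whole. From G1745 to A1781 their mean was 0.0374, against 0.0803 in Tsr1. A1781, which stops reverse transcriptase in untreated RNA, had 0.0736 in 80S and 0.299 in Tsr1 with 1M7, over 0.215 in the late and 0.346 in the mid-early control. Both treated rates were thus below their controls, and that of 80S further. With NAI the rate was 0.309 in 80S and 0.631 in Tsr1, beside DMSO rates of 0.569 and 0.306. The NAI rate of Tsr1 was thus above its DMSO rate and above the mid-early control. The NAI rate of 80S was below its DMSO rate but above the late control, so a reduction by NAI cannot be read from it. Whether NAI itself changed this stop was not tested. A1782 stopped 0.879 of transcripts in 80S and 0.978 in Tsr1, with controls of 0.950 and 0.977. G1778 had 0.00694 in 80S and 0.0760 in Tsr1, U1779 had 0.0325 and 0.174, and G1780 is listed at 0 in 80S and had 0.0580 in Tsr1. U1769 had 0.0367 in 80S and 0.0746 in Tsr1, and with NAI 0.0270 and 0.120.

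**Figure D4:**
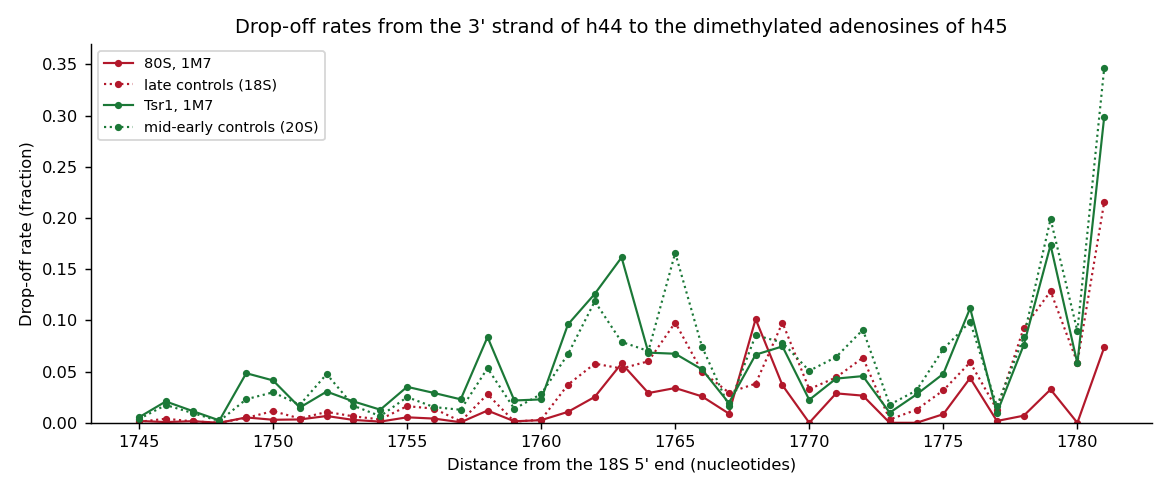
Drop-off rates (vertical axis, fraction) of the 37 nucleotides before A1782 against distance from the 18S 5' end (horizontal axis), in 1M7-treated 80S and Tsr1 (solid lines) and their controls (dotted). The 80S line is the lowest at most nucleotides, below Tsr1 at 36 of 37, and stands above the others at G1768.

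G1768, between the helices, was the most raised nucleotide of all, and most of the difference was in the controls. Its treated rate was 0.101 in 80S and 0.0665 in Tsr1, and its control 0.0382 in the late and 0.0855 in the mid-early pool. The reactivity was 2.96 in 80S and -0.71 in Tsr1. Against the DMSO columns (0.130 in 80S, 0.0849 in Tsr1) the difference was -0.33, and NAI gave -0.63 in 80S and 1.07 in Tsr1. Both checks subtract these DMSO rates, and the NAI rates were 0.108 in 80S and 0.137 in Tsr1. Elsewhere in h44 A1689 was raised against every background. Its rate was 0.111 in 80S and 0.0576 in Tsr1, over controls of 0.0484 and 0.0472, and NAI gave 0.74 in 80S and -0.56 in Tsr1. A1655 (0.106 in 80S, 0.0633 in Tsr1) and A1732 (0.0681 and 0.0136) were raised with 1M7 and near or below their DMSO rates with NAI in both particles. Against the DMSO columns the difference at A1655 was 0.30 and no longer called.

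The stretch of h18 to h20 (nucleotides 547 to 639) changed in both directions. It held 11 lower calls carried by the treated rates (11.8% of 93 nucleotides) and 10 higher ones (10.8%). G577 of h18, the third nucleotide of the decoding centre, had a treated rate of 0.0376 in 80S and 0.0364 in Tsr1, and its difference of -0.70 was made by the controls. The stop 3' of it, U578, was lower in 80S, 0.0635 against 0.108 in Tsr1, with controls of 0.0872 and 0.0794; U578 is itself ribose-methylated. A580, also in h18, was higher with both reagents (1M7 4.46 in 80S and 2.57 in Tsr1, NAI 1.62 and 0.63), and so was U558 (1M7 1.22 and -0.44, NAI 3.38 and -0.70). With the control of the DMS set the 1M7 difference at A580 was 0.0017 and the call was lost. The run U598 to U602, led by A599 with 0.118 in 80S and 0.0626 in Tsr1, was higher with 1M7, while with NAI A599 was -0.82 in 80S and -0.09 in Tsr1. Further 3' a group of lower calls ended in A635 and A636, which with NAI were 0.49 and -0.12 in 80S and 1.72 and 2.21 in Tsr1. At A636 the controls (0.102 late, 0.0706 mid-early) differed by more than the treated rates (0.0689 in 80S, 0.0826 in Tsr1). Against the DMSO columns the 1M7 difference at A635 was -0.30 and no longer called. U633, the most reduced of the group with 1M7 (-3.57 in 80S, -0.50 in Tsr1), was the other way against the DMSO columns (2.17) and with NAI (2.89 in 80S, 1.13 in Tsr1). Both checks subtract the same DMSO rates, 0.0716 in 80S and 0.177 in Tsr1. The NAI rate itself was lower in 80S, 0.171 against 0.232.

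The platform, h22 to h27 (nucleotides 851 to 1140), held 30 lower and 9 higher calls among 290 nucleotides. Carried by the treated rates were 21 of the lower (7.24% of its nucleotides, beside 5.00% of the molecule) and 1 of the higher, A856 (0.345%, beside 3.72%). NAI had the lower sign at 14 of the 21. Of all 290 nucleotides of the platform, NAI was lower in 80S by 0.5 or more at 27 and higher at 17. Over the molecule it was 227 and 175 of 1799, so an excess of lower nucleotides here was not seen with NAI. The run G1002 to C1006 contained A1003, with 0.0751 in 80S and 0.122 in Tsr1, and U1004, with 0.0184 and 0.0513; their controls were 0.0530 and 0.0557, and 0.00856 and 0.0108. NAI gave 0.16 in 80S and 2.00 in Tsr1 at A1003 and 0.12 and 1.10 at U1004. A second group, A905 to U909, was led by A906 (reactivity 0.67 in 80S, 2.30 in Tsr1), whose difference of -1.63 was -0.48 against the DMSO columns and no longer called. A906, A1003 and U1004, like A635 and A636, were singled out after their values were seen. A856 had 0.191 in 80S and 0.162 in Tsr1, over controls of 0.126 and 0.134.

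The 5' domain held few lower calls with 1M7. Its first part (to nucleotide 290) held 11 higher (3.81%) and 3 lower (1.04%) calls carried by the treated rates among 289 nucleotides, and its second part (to 546) 7 (2.73%) and 4 (1.56%) among 256. The higher shares are near or below the 3.72% of the molecule. All 18 higher ones were at adenines. A72 was the largest, 3.00 in 80S and 1.38 in Tsr1 with 1M7, and 2.42 and 0.77 with NAI. The largest lower call, U374, had a rate of 0.0669 in 80S, below its control of 0.115, and 0.135 in Tsr1, above its control of 0.111. With NAI lower nucleotides were not few in this domain. By 0.5 or more, 47 of 289 were lower in the first part and 41 of 256 in the second. Higher were 38 and 16. Over the whole molecule NAI was lower at 227 of 1799 and higher at 175. Expansion segment 6 (nucleotides 640 to 850), an insertion of eukaryotic 18S, held 23 lower and 20 higher calls. Carried by the treated rates were 10 higher ones (4.74%), all at adenines, and 8 lower ones (3.79%), 7 of them at uracils. In h41 to h43 (nucleotides 1420 to 1631) 15 calls were lower and 14 higher. Carried by the treated rates were 10 lower (4.72%) and 5 higher (2.36%), with A1446 the largest of the higher ones (3.83 in 80S, 1.93 in Tsr1). NAI had the lower sign at 9 of those 10. Of all 212 nucleotides of h41 to h43, NAI was lower in 80S by 0.5 or more at 15 and higher at 16.

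In h28 to h34 (nucleotides 1141 to 1287) the controls made more calls than the treated rates, 14 against 5. Here lies the loop of h31 with U1191, a hypermodified pseudouridine. At C1192, the stop 3' of it, the treated rate was 0.730 in 80S and 0.176 in Tsr1, the largest difference of treated rates in the molecule. The controls followed, with 0.787 (late) and 0.219 (mid-early), and the reactivities were -2.68 and -1.61. A1184 had treated rates of 0.411 in 80S and 0.0602 in Tsr1 over controls of 0.365 and 0.0391, and U1185 had 0.196 and 0.0394 over 0.206 and 0.0297. U1191 itself had 0.270 in 80S and 0.108 in Tsr1 over 0.317 and 0.102. These stops were thus present without 1M7 too.

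Over the molecule the treated rates of 80S and Tsr1 differed by at least 0.0120 at 288 nucleotides and the controls at 241. At 173 only the treated rates differed, at 126 only the controls, at 97 both in the same direction and at 18 in opposite directions. The controls thus followed at 33.7% of the nucleotides where the treated rates differed. Of these 97, 52 were not called, 26 were called in the direction of the treated rates and 19 against it. The h44 and h45 block held 31 of the 97 and h28 to h34 18. Treated and control differences had r = 0.776 across nucleotides.

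**Figure D5:**
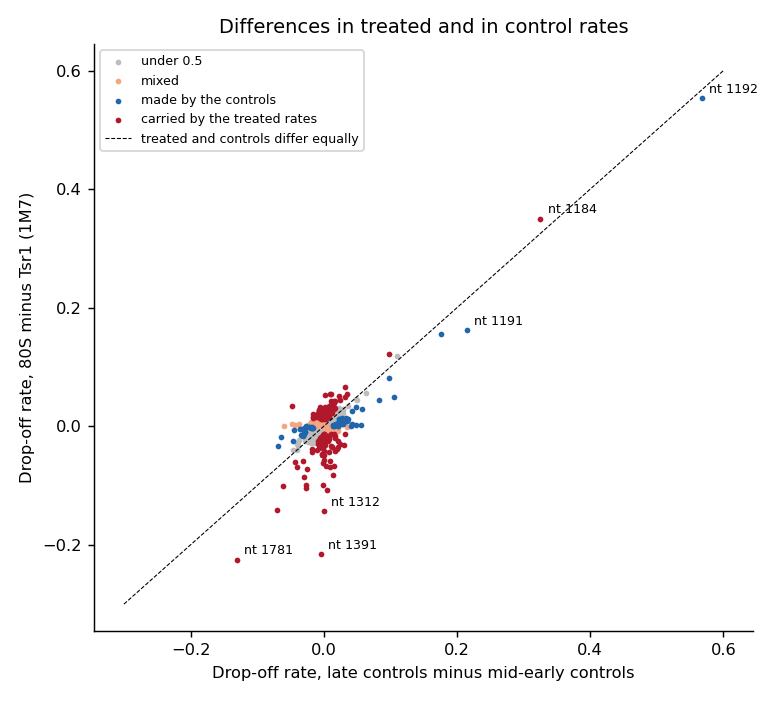
Difference in 1M7-treated rate, 80S minus Tsr1 (vertical axis), against the difference in control rate, late minus mid-early (horizontal axis), for 1799 nucleotides coloured by class. At C1192 and A1184 both differences are large and lie near the dashed line of equal differences, and the reactivities still differ by -1.07 and 1.38, while A1391 and A1312 differ mainly in the treated rates.

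The calls made by the controls included some of the largest differences in reactivity. Among the lower ones, A1388 had treated rates of 0.111 in 80S and 0.109 in Tsr1, and A678 had 0.308 and 0.305. Their differences of -2.37 and -1.83 came from controls of 0.177 (late) and 0.129 (mid-early), and 0.289 and 0.233. At A740 the treated rate was higher in 80S, 0.237 against 0.186, while the reactivity was lower, -0.82 against 1.40. A100, a ribose-methylated nucleotide, and A955 behaved in the same way (treated 0.119 and 0.141 in 80S, 0.0896 and 0.0961 in Tsr1). Among the higher ones, A859 had treated rates of 0.199 in 80S and 0.203 in Tsr1, and its difference of 1.49 came from controls of 0.166 and 0.201. At U1181 (1.65), A412 (1.42), A1524 (1.11), U794 (1.05) and G1179 (0.91) the treated rate was likewise no higher in 80S, and the mid-early control was the highest of the 4 rates. With the DMSO columns as controls 3 of the 25 higher and 10 of the 34 lower calls of this kind were still called in the same direction. Of the calls carried by the treated rates it was 45 of 67 higher and 56 of 90 lower.

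The other base-modified nucleotides and the stops 3' of them were not called with 1M7. At acetylated C1280 the reactivity was 0.04 in 80S and 0.06 in Tsr1, and at the stop 3' of it, G1281, -0.06 and -0.35. At G1575, methylated by Bud23, it was -0.26 in 80S and 0.10 in Tsr1, and at A1576 0.12 and 0.41. Acetylated C1773 (-0.15 and -0.29) and G1774 (-0.60 and -0.15) were also not called, with treated rates listed at 0 in 80S at both. G1757, 3' of A1756, had -0.04 in 80S and 0.38 in Tsr1, and C1783, 3' of A1782, had -2.10 and -1.91. With NAI C1783 was lower in 80S, 2.99 against 6.37 in Tsr1.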

How the data were processed

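The deposited table holds drop-off rates as a fraction between 0 and 1 for 1800 nucleotides in 17 columns, 1 per group, averaged by the authors over the samples of the group. The submitters' processing notes name Novoalign 2.07. The sources used here give no reference, no formula of the rate and no read depth, so the depth is unknown and no interval can be set. No control had been subtracted. Nucleotide 1, listed at 1 in every column, was left out. Reactivities, calls (a difference of 0.5) and classes were computed as described above with Python 3.11.15, numpy 2.4.6 and pandas 2.3.3. The steps were checked on simulated rates with a fixed change and no sampling noise, which does not test the calls made here. With 1 column a side no test was made. The 12 largest calls a direction carried by the treated rates, the 6 largest a direction made by the controls, the 6 largest treated differences that the controls followed, their neighbours, and lists of modified and decoding-centre nucleotides could be named. Helix boundaries and these lists come from general knowledge of yeast 18S, not from a deposited file. The members, lists, regions and thresholds were chosen with earlier results of these data known.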

Additional observations from a re-analysis of the deposited data

How the results depend on the processing

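No paired analysis was possible because the columns are means over samples and carry no replicate numbers; for the same reason no replicate could be left out. The counts in the following are higher and then lower in 80S. All calls numbered 24 and 26 with no control subtracted, 64 and 71 with negative values set to 0, 290 and 266 at a threshold of 0.3 and 40 and 75 at a threshold of 1; with the top 10% as divisor the higher calls were 87. Calls carried by the treated rates numbered 109 and 149 with a common control, 115 and 157 with a common control and 1 divisor (chosen after seeing the data), 23 and 26 with no control subtracted and 31 and 52 at a threshold of 1. They numbered 43 higher with the top 10% as divisor and 56 lower with negative values set to 0. With a common control the control rates cannot differ, so nearly every call falls in this class (all calls numbered 115 and 154). With a common control h18 to h20 held 22 calls and expansion segment 6 27. For NAI the mean of both DMSO columns then served as the common control. NAI had the lower sign at 83.2% of the lower calls carried by the treated rates. It had the higher sign at 45.9% of the higher ones. The shares over all nucleotides were not computed for this setting. Against the DMSO columns 60 nucleotides had controls that followed the treated rates. Other counts stayed within 1.5 times.

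Of 459 differences at 51 named nucleotides under 9 alternatives, 225 moved by less than 0.5, 171 moved further and 63 changed sign. With a common control the differences that changed sign were -0.83 at U1181, -0.10 at A859, -0.29 at A412, -0.26 at A1524, -0.12 at U794, -0.18 at G1179, 6.41 at U1191, 2.04 at A740, 0.95 at A100, 0.26 at A678, 1.75 at A955, 21.9 at C1192, 6.24 at U1185 and 0.0057 at G577, all made by the controls by construction. With a common control and 1 divisor they were -0.74 at U1181, -0.16 at A859, -0.22 at A412, -0.21 at A1524, -0.11 at U794, -0.12 at G1179, 6.46 at U1191, 0.076 at A1388, 2.00 at A740, 1.18 at A100, 0.12 at A678, 1.78 at A955, 22.07 at C1192, 6.23 at U1185 and 0.049 at G577. With no control subtracted they were -0.21 at U1181, -0.012 at A859, -0.051 at A412, -0.058 at A1524, -0.019 at U794, -0.031 at G1179, 2.00 at U1191, 0.043 at A1388, 0.65 at A740, 0.38 at A100, 0.090 at A678, 0.56 at A955, 6.78 at C1192, 1.91 at U1185 and 0.022 at G577. With the DMSO columns they were -0.33 at G1768, -0.62 at U1181, -1.84 at A412, -0.075 at U794, -0.78 at G1179, 2.17 at U633, 0.89 at A1388, 0.30 at A740, 0.86 at A678, 0.91 at A955, 1.47 at U1185, 0.0027 at G577 and 0.35 at A1756; the cause was not tested. With the control of the DMS set, listed at 0 near the 3' end, they were -0.26 at U1181, 4.94 at A1781, 0.59 at G1778, 2.35 at U1779, 37.6 at A1782 and -0.87 at A1184. With negative values set to 0 calls carried by the treated rates were lost at A1781, G1778, U1779, A1782, U633 and A1755. Both reactivities are negative or near 0 at most of these. Among the 51 nucleotides, calls made by the controls were lost at U1181, A412, A1524, U794, G1179, U1191, A1388, A100, A955, C1192, U1185 and G577. Read depth, which is unknown, limits every low rate.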

Other observations

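Ribose methylation removes the group with which 1M7 reacts. Of the 18 listed sites of this modification, 2 were higher and 4 lower in 80S, 3 of these 6 made by the controls and 2 carried by the treated rates (U578 and G1428). At G1428 the controls (0.0386 late, 0.0233 mid-early) differed by more than the treated rates (0.0128 in 80S, 0.0266 in Tsr1). Against the DMSO columns its difference was 0.22, the other way and not called. Over all 1799 nucleotides 309 were called, 59 of them made by the controls. At the stops 3' of the sites 4 were higher and 4 lower, 6 of the 8 made by the controls and 1, A542, carried by the treated rates. The median difference was 0.05 at the sites and 0.06 at the stops, beside 0.01 over all nucleotides. The calls at the sites were A100, A541, U578, A974, U1269 and G1428, and those at the stops A437, A542, A579, A620, G797, G1127, U1272 and G1429.

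Some nucleotides were far apart between the reagents; they were chosen after their values were seen. U313 of the 5' domain was lower in 80S with 1M7 (1.47 against 2.96 in Tsr1) and higher with NAI (9.83 against 3.22). Against the DMSO columns its 1M7 difference was -0.38 and not called. A1728 of h44 had a 1M7-treated rate of 0.146 in 80S and 0.0237 in Tsr1, with controls of 0.116 (late) and 0.0175 (mid-early), while the DMSO rates were 0.0454 in 80S and 0.0269 in Tsr1 and the NAI rates 0.0177 and 0.00355. A1765 of h44 had a late control of 0.0979 and a mid-early control of 0.166, and treated rates of 0.0340 in 80S and 0.0674 in Tsr1, below both.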
